A study of Mus musculus with 4 samples.

Results

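The enzymes described here carry methyl groups through the methionine cycle and link it to choline, creatine and cysteine. The group was defined by gene symbol as Mat1a, Gnmt, Ahcy, Bhmt, Bhmt2, Cbs, Cth, Pemt and Gamt, and all 9 were found among the 24138 rows of the deposited table. Liver RNA had been sequenced from 4 male C57BL/6J mice aged 18 weeks, each of which had been fed the FAT-MASH diet, named for metabolic dysfunction-associated steatohepatitis (MASH), and had been given resolvin D1 (RvD1), a lipid mediator formed when inflammation resolves. Diet and RvD1 were shared by every animal, so the samples form 1 group and no value below measures an effect of either. The composition of the diet and the dose of RvD1 are not given in the labels.

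In the methionine cycle, methionine adenosyltransferase joins methionine to ATP to form S-adenosylmethionine (SAM), the methyl donor of most methylation reactions. Donation of the methyl group leaves S-adenosylhomocysteine, which is cleaved to homocysteine, and homocysteine is either methylated back to methionine, with betaine or a folate as donor, or passed through transsulfuration to cysteine. The liver carries most of this flux, and phosphatidylcholine and creatine synthesis are the largest known users of SAM. Diets that lack methionine and choline, and deletion of Mat1a or Gnmt in mice, are known to cause fat accumulation in liver.

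Promoter sequences are shown for the enzyme with the highest level (Gnmt), for the enzyme that varied most between animals (Ahcy), and for Bhmt and Bhmt2, neighbouring paralogues with very different levels. RefSeq promoters on GRCm38.p6 were matched for 7 of the 9 genes, all but Mat1a and Cth, and the 250 bases before each start site were searched. Capitals mark matches on either strand to any of 4 motifs. These are the hexamer AGGTCA, bound by many nuclear receptors, the GC box with the letters GGGCGG, the box named CCAAT, and the core TATAA that is part of a TATA box. All 4 stretches are on the minus strand, written 5′ to 3′ towards the gene, and were restricted to bases outside annotated exons, except for Bhmt, for which only 30 bases are given.
Gnmt, chr17:46729169-46729415: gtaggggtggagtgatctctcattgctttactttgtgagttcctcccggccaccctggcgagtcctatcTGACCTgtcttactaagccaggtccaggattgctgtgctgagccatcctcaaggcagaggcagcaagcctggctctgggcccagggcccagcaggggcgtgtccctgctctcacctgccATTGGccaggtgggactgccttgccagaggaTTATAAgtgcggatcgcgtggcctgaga
Ahcy, chr2:155074498-155074747: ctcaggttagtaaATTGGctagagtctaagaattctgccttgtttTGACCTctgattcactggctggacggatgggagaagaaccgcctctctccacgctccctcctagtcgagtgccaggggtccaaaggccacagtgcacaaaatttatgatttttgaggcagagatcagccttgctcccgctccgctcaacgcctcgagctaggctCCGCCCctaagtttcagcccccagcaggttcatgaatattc
Bhmt, chr13:93637795-93637824: gaggcctgctATTGGacaaAGGTCAgtgtg
Bhmt2, chr13:93674303-93674432: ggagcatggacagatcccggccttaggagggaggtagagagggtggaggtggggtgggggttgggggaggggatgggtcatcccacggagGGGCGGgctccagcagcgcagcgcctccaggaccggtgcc

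The promoters of Bhmt and Bhmt2 differed in composition. The 250 bases before Bhmt had a GC content of 48% and 5 CpG dinucleotides, and those before Bhmt2 had 74% and 20 CpG, against medians of 52.4% and 6 over 32841 mouse promoters of the same length. The Bhmt window held AGGTCA 3 times, first bases at -234, -72 and -47 from the start site, with an inverted CCAAT box at -56. At least 1 AGGTCA was present in 14.0% of all promoters and 3 or more in 43 of them (0.131%). The Bhmt2 window held no AGGTCA and had GGGCGG at -155 and, within the stretch shown, at -40, a box found in 32.7% of promoters. Gnmt had TTATAA from -31, read as TATAA on both strands (22.8% of promoters hold TATAA), an inverted CCAAT box at -62 (CCAAT is held by 33.9%) and AGGTCA on the opposite strand at -181. Ahcy had an inverted GC box at -41, an inverted CCAAT box at -237 and AGGTCA on the opposite strand at -205. These matches describe the letters only, and the motifs were chosen after the sequences had been seen. GENCODE starts a Bhmt transcript further upstream, so 203 bases of the Bhmt window lie in an exon of that annotation. Likewise 100 bases of the Bhmt2 window lie in annotated exons, and its match at -155 falls within the span of Dmgdh. Bhmt2 and Dmgdh, the next enzyme of betaine breakdown, are transcribed away from each other with 133 bases between their spans on chromosome 13.

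Values are FPKM, fragments scaled to transcript length and to the number of mapped fragments, so levels of different genes can be set beside each other. The estimated depth was 18.8 to 20.1 M fragments (M, mega) per library. It was read within a preset window of low values, which limits the depths that could be found. The depth and the counting errors drawn from it are therefore rough. The summed FPKM lay between 516816 and 570681, highest in liver 4. The median expressed gene lay 0.04 above its mean in liver 4 on the log2(FPKM + 1) scale and within 0.02 below it in the other livers. Serpina1a, Serpina1b and Serpina1c were listed at 0 in livers 3 and 4 but not in livers 1 and 2, and Alb was listed at 0 in all 4, so a 0 in this table can be a failed estimate. None of the 9 enzymes was listed at 0. The other 11 of the 12 hepatocyte markers examined were present, and their summed level lay between 37724 FPKM (liver 2) and 49122 FPKM (liver 4).

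The 9 enzymes were abundant and spanned a 16.1-fold range of mean level. Together they summed to 4747, 4618, 5559 and 5511 FPKM in livers 1 to 4, or 0.958 ± 0.0857% of the summed FPKM (SD, n = 4). Gnmt ranked 40 and Mat1a 66 among all rows by mean, and Bhmt2, the lowest member, ranked 777. The order of the means was Gnmt, Mat1a, Bhmt, Ahcy, Pemt, Gamt, Cth, Cbs and Bhmt2. The ranges over livers did not overlap between Gnmt and Mat1a, Bhmt and Ahcy, Gamt and Cth, or Cth and Cbs. They overlapped for Mat1a and Bhmt, Ahcy and Pemt, and Pemt and Gamt, although in each of these pairs the first exceeded the second in 4 of 4 livers. Cbs and Bhmt2 could not be ordered, with Cbs higher in 2 of 4 livers. In bulk liver RNA, fewer cells of a type and less RNA per cell cannot be told apart.

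**Figure D1:**
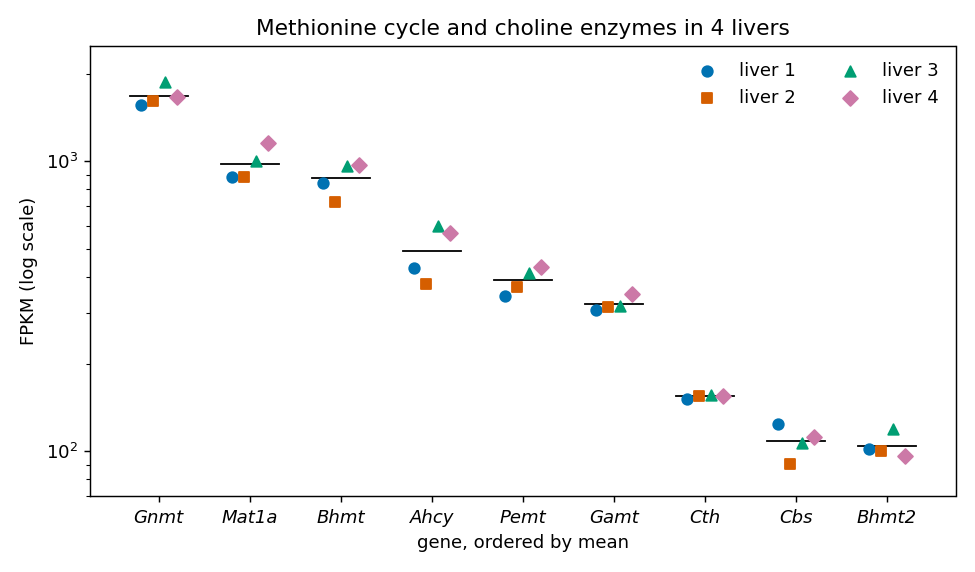
FPKM on a log axis of the 9 enzymes in each liver, with genes ordered by mean and the mean over 4 livers drawn as a black line. Levels run from Gnmt, with a mean of 1683 FPKM, down to Bhmt2, with a mean of 105 FPKM, and the Cth points almost coincide.

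Mat1a (chromosome 14, 41105033 to 41124428) encodes the adenosyltransferase of adult hepatocytes, which makes SAM. Livers 1 to 4 had 884, 880, 1005 and 1157 FPKM of Mat1a, a mean of 981 ± 131 FPKM (SD, n = 4). Livers 1 and 2 were nearly equal and liver 4 was the highest. Mat2a, the form of most other tissues and of growing cells, was at 31.4, 28.8, 26.4 and 35.4 FPKM, and Mat2b, its regulatory subunit, ranged from 20.4 to 25.3 FPKM. Mat1a exceeded Mat2a 28.2-, 30.5-, 38.0- and 32.7-fold in livers 1 to 4, on average 32.3 ± 4.204-fold (SD, n = 4). The ratio was highest in liver 3, where Mat2a was at its lowest, and not in liver 4, where Mat1a was at its highest.

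Gnmt (chromosome 17, 46725664 to 46729165) encodes glycine N-methyltransferase, which uses SAM to turn glycine into sarcosine and so disposes of excess methyl groups. The 4 livers, in the same order, had Gnmt at 1570, 1610, 1879 and 1672 FPKM, a mean of 1683 ± 138 FPKM (SD, n = 4). Liver 3 stood above the other livers, which lay between 1570 and 1672 FPKM. Other SAM-dependent methyltransferases included Inmt (1725 ± 194 FPKM) and Mettl7b (844 ± 74.6 FPKM; each SD, n = 4), which methylate indoleamines and thiols. Inmt and Gnmt had overlapping ranges. Nnmt, which methylates nicotinamide and is another sink for SAM, was at 37.6, 41.5, 39.4 and 26.4 FPKM, lowest in liver 4. Gnmt exceeded Nnmt 47.9 ± 10.9-fold (SD, n = 4), from 38.7-fold in liver 2 to 63.3-fold in liver 4.

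Ahcy (chromosome 2, 155059312 to 155074497) encodes the hydrolase that cleaves S-adenosylhomocysteine, the product and inhibitor of methyltransferases. The level of Ahcy was 428, 376, 598 and 567 FPKM, a mean of 492 ± 107 FPKM (SD, n = 4). Livers 3 and 4 were clearly above livers 1 and 2, and the highest liver exceeded the lowest 1.59-fold. Ahcy was the single member with a range of at least 1.5-fold, a range reached by 28.4% of the 10541 genes called expressed, those whose mean was 1 FPKM or more. Its SD of log2(FPKM + 1), 0.32, was above that of 92.1% of expressed genes. The related gene Gm4737 shares 74.1% of the 50-base runs of the Ahcy transcript, and was listed at 4.51, 3.56, 8.19 and 5.24 FPKM, highest and lowest in the same livers as Ahcy. Reads of both cannot be fully told apart, although the level listed for Gm4737 was small beside that of Ahcy. Gm9826 shares 33.9% of the Ahcy runs and was not analysed here, so reads of it could also be counted under Ahcy. Adk, adenosine kinase, removes the adenosine that Ahcy releases and was at 474, 451, 471 and 542 FPKM. Ahcyl1 and Ahcyl2, related proteins, were far lower, with ranges of 26.6 to 29.7 and 2.45 to 3.83 FPKM.

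Bhmt (chromosome 13, 93616891 to 93637758) encodes betaine-homocysteine methyltransferase, which returns homocysteine to methionine with a methyl group from the choline product betaine. The level of Bhmt was 839, 723, 967 and 971 FPKM, a mean of 875 ± 119 FPKM (SD, n = 4). Livers 3 and 4 were almost equal, and liver 2 was the lowest. Bhmt2 (chromosome 13, 93656097 to 93674302), its paralogue 18.3 kb away, prefers S-methylmethionine as donor and was at 102, 101, 120 and 96.4 FPKM, a mean of 105 ± 10.3 FPKM (SD, n = 4). Liver 4 was the lowest for Bhmt2, whereas for Bhmt livers 1 and 2 lay below it. Bhmt exceeded Bhmt2 8.25-, 7.19-, 8.08- and 10.07-fold, on average 8.40 ± 1.21-fold (SD, n = 4). Their transcripts were 79.0% identical over 1072 aligned bases and shared 10 of 2441 runs of 50 bases, so few reads could be split between them. The pseudogenes Gm5096 and Bhmt-ps1 share 56.9% and 31.8% of the Bhmt runs and were not analysed here, so reads of theirs could be counted under Bhmt.

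The other route of homocysteine methylation uses a folate. Mtr, methionine synthase, was at 0.771, 1.01, 0.616 and 1.20 FPKM and its reductase Mtrr at 2.14, 2.86, 2.12 and 2.11 FPKM. Both transcripts thus lay far below Bhmt in each liver.

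Cbs (chromosome 17, 31612623 to 31637205) encodes cystathionine beta-synthase, the entry into transsulfuration. The level of Cbs was 124, 90.3, 107 and 112 FPKM, a mean of 108 ± 14.1 FPKM (SD, n = 4), and was the single member with its highest value in liver 1, as had 17.9% of expressed genes. Cth (chromosome 3, 157894248 to 157925063) encodes cystathionine gamma-lyase, which releases cysteine in the next step, and was at 152, 155, 157 and 156 FPKM, a mean of 155 ± 2.07 FPKM (SD, n = 4). The 4 livers were thus almost identical for Cth, with a highest value 1.03-fold above the lowest. Its SD of 0.02 on the log2 scale was undercut by 14 of the 10541 expressed genes (0.133%). By the rough depth estimate, 4736 to 4943 fragments lay behind each Cth value, a counting error of about 0.02 on the same scale. Cth did not keep this rank under other scalings, since its SD was 0.04 with median-ratio scaling, undercut by 1.20% of expressed genes, and 0.07 with equal totals, undercut by 7.57%. Cbs was below Cth in 4 of 4 livers, at 0.701 ± 0.0976 of its level (SD, n = 4).

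**Figure D2:**
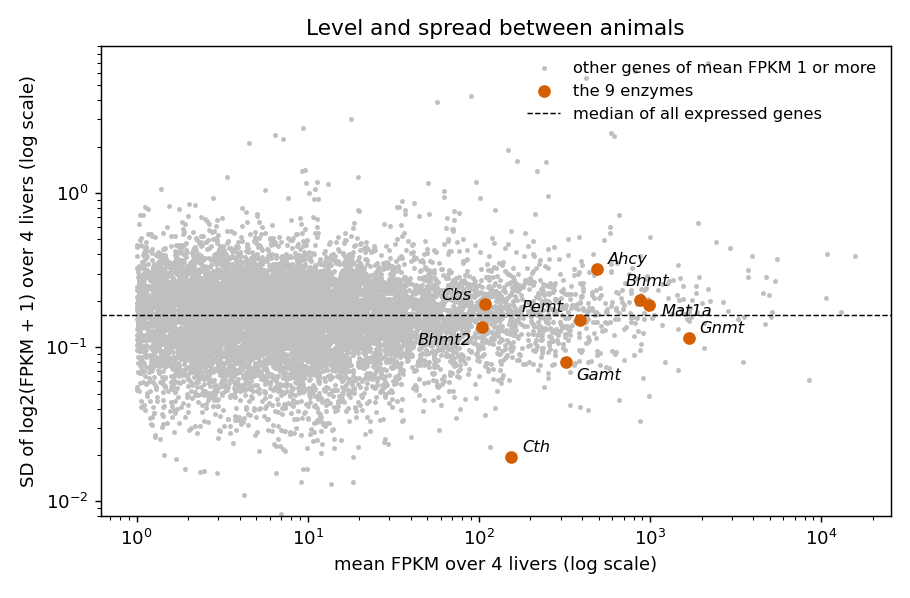
SD of log2(FPKM + 1) over 4 livers against mean FPKM, both on log axes, for the 9 enzymes in orange and all other expressed genes in grey, with the median of all expressed genes as a dashed line. Ahcy (SD 0.32) lies above most genes, and Cth (SD 0.02) lies near the lower edge.

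Pemt (chromosome 11, 59970614 to 60046489) encodes the enzyme that makes phosphatidylcholine by methylating phosphatidylethanolamine with SAM, a route largely restricted to liver. Pemt was at 342, 368, 411 and 431 FPKM, a mean of 388 ± 40.5 FPKM (SD, n = 4), and liver 1 was the lowest. The alternative route starts from choline and is limited by Pcyt1a, which was at 23.6, 21.5, 22.1 and 25.04 FPKM. Pemt exceeded Pcyt1a 14.5-, 17.1-, 18.6- and 17.2-fold, on average 16.9 ± 1.70-fold (SD, n = 4). Pcyt1b ranged from 0.203 to 0.294 FPKM, and Chka and Chkb, the choline kinases, from 6.15 to 10.5 and from 23.1 to 26.3 FPKM. Among the 19 expressed genes of phosphatidylcholine and choline examined were Pcyt2 of phosphatidylethanolamine synthesis (280 ± 23.2 FPKM) and Chpt1, a choline phosphotransferase (172 ± 28.9 FPKM; each SD, n = 4).

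Gamt encodes guanidinoacetate methyltransferase, the SAM-dependent last step of creatine synthesis. Gamt was at 306, 315, 317 and 348 FPKM, a mean of 322 ± 18.4 FPKM (SD, n = 4). Livers 1 to 3 lay close together, and liver 4 was the highest, although with equal totals liver 3 (326.7) and liver 4 (325.6) were nearly level. The table gives Gamt a span of 672 kb (chromosome 10, 79697305 to 80369637) that 48 other rows share, whereas RefSeq places the gene at 80258151 to 80261025. Its value was therefore estimated within a merged block of genes, and the part this plays was not tested. Gatm, the earlier step of creatine synthesis and mainly a kidney enzyme, was at 4.35, 4.78, 3.12 and 4.02 FPKM, so that Gamt exceeded it 81.1 ± 16.2-fold (SD, n = 4).

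**Figure D3:**
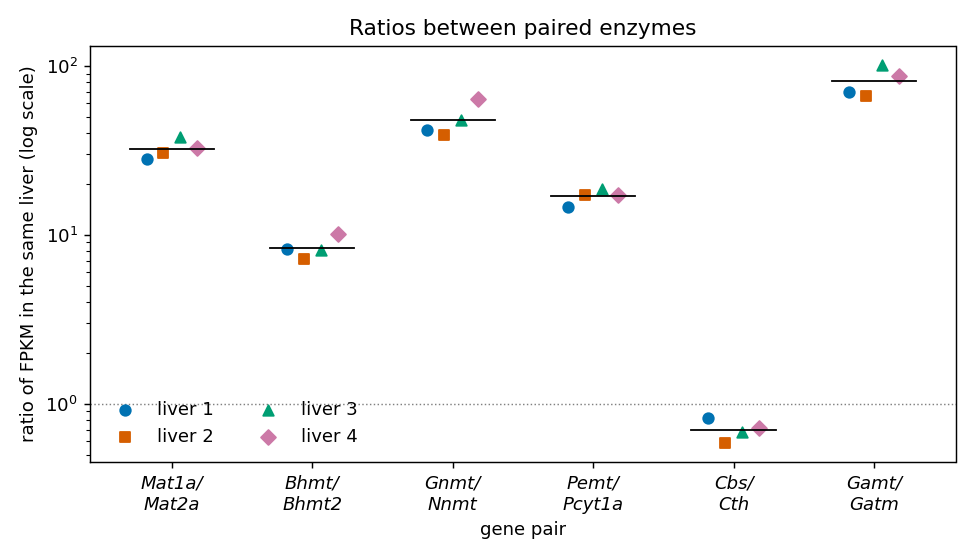
Ratio of FPKM of paired genes in the same liver on a log axis, with the mean over livers as a black line and a dotted line at equal level. Gamt over Gatm (mean 81.1) is the highest ratio, and Cbs over Cth (mean 0.701) is the single ratio below the dotted line.

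Most of the enzymes were higher in livers 3 and 4 than in livers 1 and 2. Both of livers 3 and 4 lay above both of the others for 7 of the 9 genes, all but Bhmt2 and Cbs, against 20.3% of expressed genes. For Cth (156 FPKM in liver 4 and 155 FPKM in liver 2) and Gamt (317 FPKM in liver 3 and 315 FPKM in liver 2) this rested on gaps smaller than the counting error, estimated at 1.43% for each gene. The median deviation from the gene mean was -0.07 in livers 1 and 2, 0.09 in liver 3 and 0.12 in liver 4 on the log2(FPKM + 1) scale. With median-ratio scaling these medians were -0.06, -0.05, 0.11 and 0.07 in livers 1 to 4, and with equal totals -0.04, -0.04, 0.13 and 0.02, so the order of livers 3 and 4 turned. As deposited, for the median expressed gene the deviations were -0.01, -0.02, -0.01 and 0.04. In liver 3, 7 of 9 enzymes were above their mean, against 47% of expressed genes, and in liver 4 likewise 7 of 9, against 60.8%. Livers 1 and 2 each had 1 enzyme above its mean (Cbs and Cth, respectively), against 47.2% and 45.1% of expressed genes. With median-ratio scaling or equal totals the pattern of livers 3 and 4 held for 5 of 9 genes, against 16.2% and 13% of expressed genes, and was lost for Gnmt and Cth. Gamt counted among the 5 through gaps below its roughly estimated counting error. These were 320.2 in liver 3 and 319.9 in liver 2 with median-ratio scaling, and 325.6 in liver 4 and 322.1 in liver 2 with equal totals. The differences were small, with a median SD of 0.15 over the 9 enzymes, beside 0.16 over all expressed genes, and 8 of the 9 ranged less than 1.5-fold, as did 71.6% of expressed genes. By Dixon's ratio at the 95% level, 0 of 9 had a liver apart from the rest, against 5.46% of expressed genes. The labels give livers 3 and 4 no feature that livers 1 and 2 lack.

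**Figure D4:**
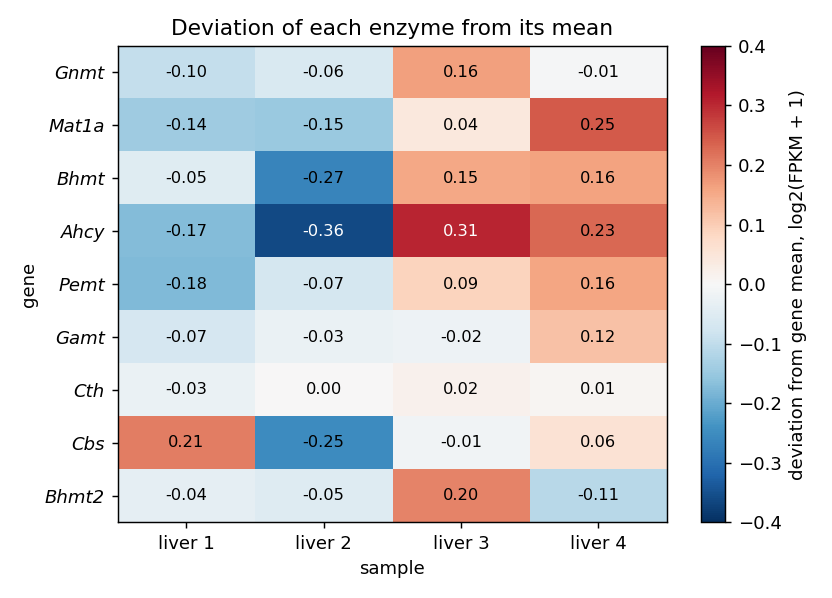
Deviation of log2(FPKM + 1) from the gene mean for each enzyme (rows, ordered by mean) in each liver (columns), with red above and blue below the mean. Livers 3 and 4 are mostly red, Ahcy shows the widest contrast from -0.36 in liver 2 to 0.31 in liver 3, and the Cth row is nearly white.

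Markers of zones and of other cells moved as well. The 15 periportal hepatocyte markers summed to 7631, 7308, 8520 and 8525 FPKM in livers 1 to 4, with the sum higher in livers 3 and 4. Of these markers, 8 of 15 had livers 3 and 4 above the others, a pattern shown by 20.3% of expressed genes. The median deviations of the periportal markers were -0.11, -0.01, 0.13 and 0.05, so liver 2 lay close to the gene mean. The 15 pericentral markers summed to 7838, 6523, 6948 and 10419 FPKM, of which Cyp2e1 alone made up 5236, 4387, 4618 and 7788 FPKM. Their median deviations were 0.08, -0.21, -0.0025 and 0.09, and 1 of the 14 expressed had livers 3 and 4 above the others. Acute phase genes, hepatic products of inflammation, summed to 11374, 22070, 9991 and 13450 FPKM, highest in liver 2. That liver was the lowest for Bhmt, Ahcy, Cbs and, as deposited but under neither scaling, Mat1a, against 29.9% of expressed genes. Liver 1 was the lowest for Pemt and Gamt and, as deposited, for Gnmt and Cth, against 20.7% of expressed genes. Gnmt lost this with equal totals, and Cth lost it under both scalings. The summed stellate and fibroblast markers were 295, 375, 243 and 261 FPKM, lower in livers 3 and 4, with none of the 11 expressed following the enzymes. Macrophage markers summed to between 209 FPKM in liver 3 and 298 FPKM in liver 4, endothelial markers to between 72.8 and 98.6 FPKM, cholangiocyte markers to between 203 and 245 FPKM (171 to 214 FPKM from Spp1 alone), and lymphocyte markers to between 5.63 and 7.13 FPKM. Neutrophil markers summed to between 8.10 and 19.1 FPKM and erythroid markers to between 427 and 1076 FPKM. No marker of these lists except Alb was at 0 in all livers. The part of zonation, inflammation or other cells in the levels of the enzymes was not tested.

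The neighbouring pathways were read from 6 lists with 104 rows in the table, of which 94 were expressed. In the folate cycle, 10 of 19 expressed genes had livers 3 and 4 above the others, led in level by Aldh1l1, which removes formyl groups from folate (364, 340, 486 and 427 FPKM), Shmt2, mitochondrial serine hydroxymethyltransferase (123, 127, 151 and 131 FPKM), and Ftcd of histidine breakdown (134, 104, 148 and 139 FPKM). Mthfd1l ranged 2.14-fold, with 1.80 FPKM in liver 3 and 3.84 FPKM in liver 4. The folate receptor gene Folr2 ranged 2.04-fold, and its highest value, 6.59 FPKM, was also in liver 4. Mthfd2 (mean 0.835 FPKM), Mthfd2l, Aldh1l2 and Folr1 were below 1 FPKM. In the list of other methyltransferases, which also held the amidinotransferase Gatm, 6 of 13 followed the pattern of livers 3 and 4, in the glycine, sarcosine and betaine route 4 of 11, in SAM and methionine handling 3 of 17, in the products of transsulfuration 3 of 15, and in phosphatidylcholine and choline 2 of 19. The share over all expressed genes was 20.3%, and the counts for SAM and methionine handling and for the products of transsulfuration were near it. All these list counts are as deposited and were not recomputed under the other scalings.

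Sarcosine, the product of Gnmt, and the betaine product dimethylglycine are broken down by Sardh and Dmgdh. Sardh was at 200, 162, 282 and 220 FPKM, with a 1.74-fold range and the highest value in liver 3, as for Gnmt. Dmgdh was at 154, 141, 156 and 186 FPKM, highest in liver 4, the lowest liver for its divergent neighbour Bhmt2. Chdh and Aldh7a1, which oxidise choline to betaine, ranged from 36.6 to 45.2 and from 188 to 244 FPKM. The betaine transporter gene Slc6a12 was at 35.8, 26.6, 38.0 and 35.8 FPKM, lowest in liver 2. Median SDs of the 6 lists lay between 0.15 and 0.20, close to the 0.16 of all expressed genes.

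Downstream of Cth, cysteine is oxidised by Cdo1 or built into glutathione. Cdo1 was at 857, 1076, 751 and 1164 FPKM, so liver 3 was the lowest and liver 4 the highest. Gclc, the catalytic subunit of the limiting enzyme of glutathione synthesis, was at 87.3, 89.3, 60.7 and 90.0 FPKM, again lowest in liver 3. Chac1, which degrades glutathione and is induced by the integrated stress response, had the widest range of the expressed genes in these lists, 2.94-fold, at 2.11, 2.47, 3.99 and 6.21 FPKM. Tst, a sulfurtransferase, averaged 255 ± 39.2 FPKM and Got1, an aminotransferase, 144 ± 17.2 FPKM (each SD, n = 4). In SAM and methionine handling, Adi1 of the salvage pathway averaged 176 ± 22.3 FPKM and Srm of spermidine synthesis 33.7 ± 5.12 FPKM (each SD, n = 4).

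Among the genes outside these lists whose deviations were most like the median of the 9 enzymes were Tmem9, Tmem161a, Rarres2 and Plbd2. Likeness was the root mean square difference of deviations over 4 livers, 0.053 for Tmem9 and 0.054 for Plbd2, among 3419 genes whose mean was 5 FPKM or more and whose SD was no lower than the median of the enzymes. Rarres2, which encodes chemerin, was at 708, 696, 850 and 841 FPKM.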

How the data were processed

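Poly(A)-enriched RNA of 4 livers was sequenced, per the labels' protocols. The submitters' processing notes list FastQC 0.10.1, Trim Galore 0.6.3, cutadapt, STAR 2.7.6a, Cufflinks 2.2.1 and mm10, without roles; annotation and parameters are not given in the sources used here. The authors deposited 1 table, whose values were taken to be FPKM from its identifiers and values. Columns were matched through the sample descriptions, with 0 unmatched, and 1 was added to each start, which then equalled the RefSeq start for 52.0% of 22565 symbols instead of 3.00%.

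Values were analysed as log2(FPKM + 1) in Python 3.11.15 with pandas 2.3.3. With a single group, no test between groups was possible, so SDs describe the spread between these 4 samples. Depth was estimated from the lowest values of genes with a single GENCODE vM21 transcript. Only values within a preset window were used, which bounds the estimate, so it is approximate and no independent measure of depth. FPKM holds no counts. Measures were tested on simulated data. Named genes were the members, the ratio partners, in each pathway list the 3 highest, those with a range of at least 2-fold or past Dixon's limit, and the 5 most alike genes; other genes were named for their role in the pathway. Members and lists were chosen with earlier results of these data known. Alternatives were scaling, pseudocount, the filter and leaving out each liver. Some genes covered by the rule for named genes are not reported here.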

Additional observations from a re-analysis of the deposited data

Results flagged for a closer look

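Among the 94 expressed genes of the 6 neighbouring pathway lists, 7 (7.45%) had 1 liver far from the other 3 by Dixon's ratio at the 95% level, which chance gives in about 1 of 20 genes and which 5.46% of all expressed genes showed. None of the 9 enzymes did. Gclc was 60.7 FPKM in liver 3 and 87.3 to 90.0 FPKM in the other livers, and Ahcyl2 was 3.83 FPKM in liver 3 and 2.45 to 2.65 FPKM elsewhere. Liver 2 stood apart for Slc6a12 (26.6 FPKM, others 35.8 to 38.0 FPKM), Hnmt (48.8 FPKM, others 38.8 to 40.0 FPKM) and Mtrr (2.86 FPKM, others 2.11 to 2.14 FPKM). Liver 4 stood apart for Odc1 (31.5 FPKM, others 26.6 to 27.4 FPKM) and Mtap (11.1 FPKM, others 9.72 to 9.87 FPKM).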

How the results depend on the processing

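Of 168 values recomputed under alternatives, 159 stayed within the tolerance set for them. For levels and ratios this was the SD over livers. Leaving out a liver cannot move a mean that far, so those values could only stay. For median SDs it was the SD of the values without each liver, and for deviations the SD of the medians of the 4 livers. Counts, shares and the SD of Cth were allowed to change up to 1.5 times. The tally is therefore no measure of stability. The levels of the 9 enzymes moved by -0.26% to 0.37% with median-ratio scaling or equal totals and by -7.14% to 7.84% when a liver was left out. Their median SD of 0.15 lay between 0.13 (without liver 2) and 0.17 (without liver 3). The number of enzymes with livers 3 and 4 above the rest, alternatives for which were chosen after seeing the data, was 5 under both scalings and 7 to 8 without a liver, when the criterion is looser and 33.1% to 44.4% of expressed genes met it, against 20.3% with 4 livers. When a liver was left out, the median deviation of the enzymes lay between -0.12 and -0.04 in liver 1, -0.13 and -0.04 in liver 2, 0.05 and 0.14 in liver 3 and 0.07 and 0.11 in liver 4. Liver 1 was at -0.12 without liver 2, liver 2 at -0.13 without liver 1, liver 3 at 0.05 without liver 1 and 0.14 without liver 4, and liver 4 at 0.07 without liver 2; without liver 3, livers 1 and 2 were both at -0.04. The SD of Cth was 0.04 with median-ratio scaling, 0.07 with equal totals and 0.0078 without liver 1. The median SD of all expressed genes was 0.19 with a pseudocount of 0.1, 0.11 with a pseudocount of 5, 0.09 with no filter and 0.14 without liver 3. Dixon's ratio was not recomputed with 3 livers, for which the limit used does not apply. No paired analysis was possible because the samples form a single group. The depth is approximate and limits genes near 1 FPKM, such as Mtr, more than the enzymes described.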
